A study of Mus musculus with 14 samples.

Results

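The response of mouse ear skin to croton oil was measured in animals that lack Langerhans cells for the long term. These LC-DTA mice express the A chain of diphtheria toxin in Langerhans cells, which are dendritic cells in the epidermis, so that the cells are lost as they form. The comparison sets 4 ears painted with croton oil (n = 4) against 3 painted with vehicle (n = 3), and these are 7 of the 14 samples of the series. A gene was tested when it reached a TPM of at least 1 (TPM is a level scaled to transcript length and to the library total) in at least 3 of the 7 samples, which kept 14432 of 24035 genes and left 9603 below that level.

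The series profiled messenger RNA of whole ear tissue. Each ear was painted on both sides with 20 µl of liquid, either an acetone and olive oil mixture alone (the vehicle) or that mixture with 1% croton oil, and RNA was taken 6 h later. The other 7 samples, 3 vehicle and 4 croton oil, came from LC-DTR mice, in which Langerhans cells carry the diphtheria toxin receptor and were removed by an injection of toxin 3 days earlier; they are used here where the 2 responses are set against each other. No group had intact Langerhans cells, so the values describe croton oil in skin without them and not the effect of their absence. The labels give neither age nor sex and do not say that each sample is a separate animal, so p-values measure the spread between these samples, which may in part be technical. As background, the toxin gene of LC-DTA mice is driven by human langerin regulatory sequence and acts without any injection.

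Croton oil is a plant oil whose phorbol esters bind and switch on protein kinase C. In keratinocytes this signal passes through the ERK kinases and the transcription factors AP-1 and NF-kB, which turn on cytokines, chemokines and growth factors of the EGF family. Within hours vessels leak and neutrophils and monocytes enter the dermis, while the epidermis shifts from steady renewal to a wound-like state with stress keratins, a remodelled cell envelope and later hyperplasia.

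Croton oil moved most of the measured transcriptome within 6 h. Inflammatory and wound-type genes gained many fold, among them chemokines, interleukins, stefins, stress keratins and cell envelope precursors, while genes of hair follicles, Wnt and Hedgehog signalling, the circadian clock and dermal matrix lost smaller amounts. Of the 14432 genes, 3714 rose (25.7%) and 5293 fell (36.7%) in limma's moderated test at a Benjamini-Hochberg adjusted p under 0.05. At larger folds, 551 genes rose (3.82%) and 453 fell (3.14%) by at least 2-fold, 124 rose and 13 fell by at least 4-fold, and 46 rose by at least 8-fold while none fell that far. The order at 2-fold turned with a pseudocount of 0.1, where 684 rose and 793 fell; at 4-fold 206 rose and 49 fell with it. Folds and differences are on the scale of log2(TPM + 1), written with their standard error, and group levels are mean TPM ± SD. The median log2 difference of all genes tested was -0.089, and the members of each gene group below are read beside that median and beside the 25.7% and 36.7%.

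**Figure D1:**
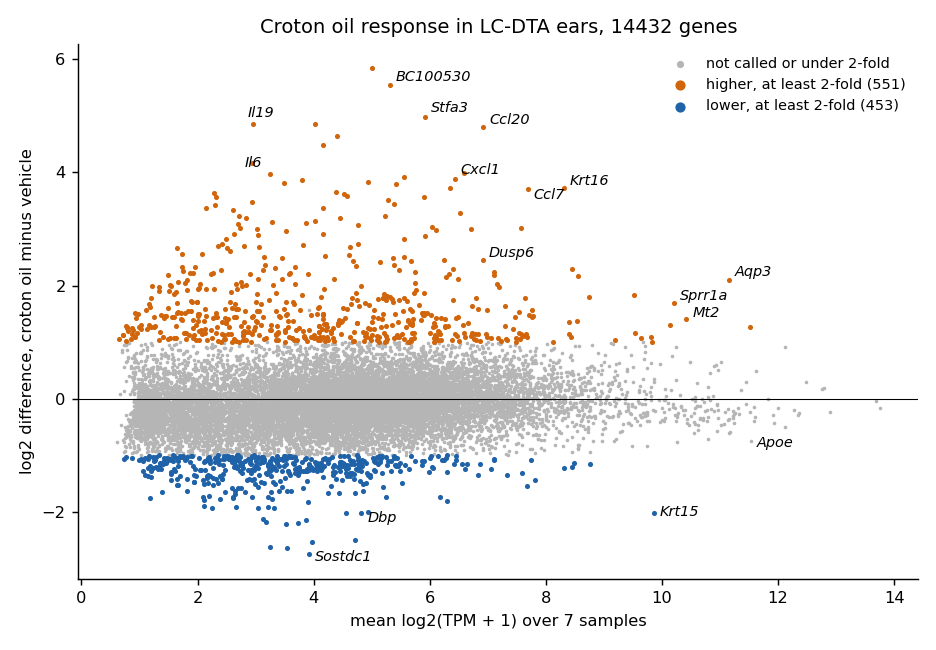
Mean level of each of the 14432 genes over the 7 samples (x axis, mean log2(TPM + 1)) against its log2 difference, croton oil minus vehicle (y axis). Grey points are genes that did not pass the test or changed less than 2-fold, orange points the 551 genes that rose and blue points the 453 that fell by at least 2-fold; the orange points reach above 5 and no blue point goes below -3.

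Langerin (Cd207), the defining Langerhans cell gene, was at 0.290 ± 0.320 TPM after vehicle and 0.529 ± 0.137 TPM after croton oil, under the level for testing. Principal components divided the samples by treatment on the leading axis (82.8% of the variance), and the next axis (6.53%) set croton oil sample 1 (19.8) apart from the other 3 (-10.6 to 0.83). Samples of 1 group correlated at 0.990 to 0.996 across genes. Croton oil samples 3 and 4 carry label numbers (10796 and 10797) away from those of the other 5 samples (10575 to 10619), and what the number stands for is not given. Without samples 3 and 4, 3127 genes rose and 4715 fell, and without samples 1 and 2, 3657 rose and 4865 fell. TPM keep no record of depth, so how many reads stand behind a low value is unknown. The ear is a mixture of tissues, and in all that follows fewer cells of a type and less RNA per cell cannot be told apart.

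Ranked by gain in TPM, the changes show where the RNA of the ear went. Aqp3 (chr4:41092722-41098183, GRCm38), the channel that carries water and glycerol into keratinocytes, had the largest gain of any gene: it stood at 1104, 859 and 1042 TPM in the 3 vehicle samples and at 4108, 4869.6, 4336 and 3777 TPM after croton oil (log2 difference 2.09 ± 0.11, adjusted p = 3.9e-06). Every croton oil sample lay more than 3-fold above every vehicle sample. Sprr1a, a cell envelope precursor, went from 608 ± 106 to 2035 ± 667 TPM, the metal-binding Mt2 from 789 ± 72.8 to 2122 ± 489 TPM and the stress keratin Krt16 from 74.6 ± 24.9 to 978 ± 232 TPM. Urah, which encodes a hydrolase of the urate breakdown pathway, rose from 355 ± 20.4 to 1276 ± 128 TPM, and the long non-coding RNA Neat1 from 586 ± 106 to 1249 ± 182 TPM. At the other end, Apoe, the lipid-carrying apolipoprotein, had the largest loss, from 3844, 4130.4 and 4028 TPM to 2758, 2330.0, 2087 and 2377 TPM (log2 difference -0.75 ± 0.10, adjusted p = 1.9e-04). Its groups did not overlap, and croton oil sample 1 was the highest of the 4. Krt15 (chr11:100131758-100135928), a keratin of resting basal cells and of hair follicle stem cells, fell from 1967, 2294 and 1951 TPM to 502, 490.0, 449 and 592 TPM (log2 difference -2.03 ± 0.10, adjusted p = 2.6e-06). Krt5 (-0.51 ± 0.093), the membrane protein gene Itm2b (-0.60 ± 0.07), the ribosomal stalk protein Rplp0 (-0.43 ± 0.094) and the collagen-binding Dcn (-0.56 ± 0.13) fell by less on the log2 scale but, being abundant, also stood among the 15 largest losses.

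The proximal promoters of the changed genes were read next, because croton oil acts through transcription factors with known target sequences. Promoters came from RefSeq's GRCm38.p6 table, which covered 10658 of the 14432 genes, and the 250 bases before each annotated start were searched on both strands. The AP-1 sequence TGACTCA lay in this window for 4.61% of all genes tested, for 11.8% of the 381 covered genes that rose and 3.88% of the 309 that fell by at least 2-fold, and for 14.8% of the 88 that rose by at least 4-fold. For the NF-kB sequence GGGNNTTTCC the shares were 1.89% of all genes, 4.2% and 1.62% of those that rose and fell by at least 2-fold, and 6.82% of those that rose by at least 4-fold. The E-box CACGTG had the opposite order, with 9.57% of all genes, 5.51% of those that rose and 11.7% of those that fell by at least 2-fold. A gene counted when any of its annotated starts held the sequence. Starts per gene averaged 1.27 for all genes, 1.15 for those that rose and 1.29 for those that fell by at least 2-fold. This is the same order as the E-box shares, and its part in them was not tested. Among gene groups, AP-1 sequences stood before 9 of 32 cell envelope genes (28.1%), NF-kB sequences before 4 of 7 neutrophil chemokine and growth factor genes (57.1%), E-boxes before 5 of 16 clock genes (31.2%), and the endoplasmic reticulum stress element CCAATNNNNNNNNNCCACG, present before 0.131% of all genes, before 8 of 16 genes of the unfolded protein response (50%). A match is a stretch of letters and does not show that a factor bound there, and promoters of neighbouring gene copies are not independent.

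**Figure D2:**
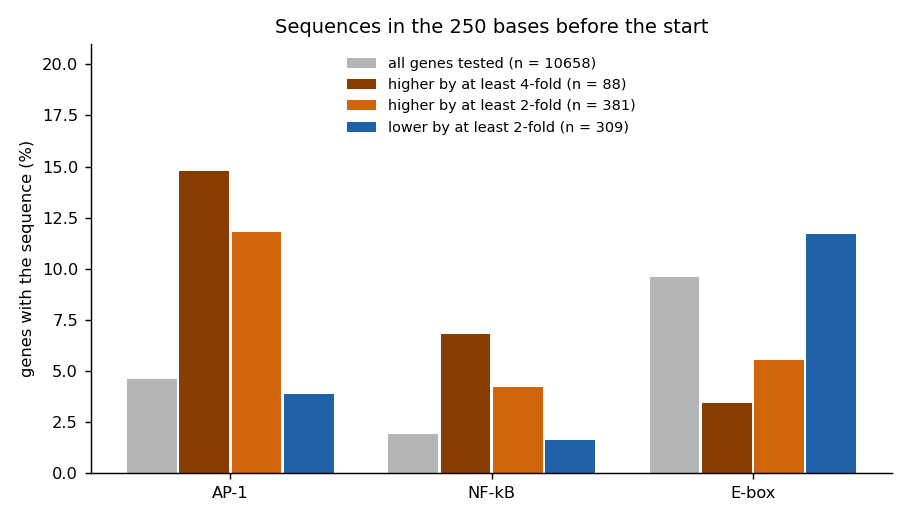
Share of genes (y axis, percent) with each of 3 sequences in the 250 bases before the start, for all genes tested, genes that rose by at least 4-fold or at least 2-fold, and genes that fell by at least 2-fold. The bars for AP-1 go from 4.61% to 14.8% and those for NF-kB from 1.89% to 6.82%, while the E-box bar is highest, at 11.7%, for genes that fell.

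Windows of 6 genes from these groups are printed below, 5′ to 3′ on the strand of the gene, since they carry the sequences just counted; capitals mark the match. The first 2 hold AP-1, the next 2 NF-kB (Cxcl1 with a pair of matches), the fifth the stress element and the last an E-box. The Il6 window also holds an AP-1 sequence near its 5′ end, left in lower case, and the Cxcl1 window is cut to 246 bases where an annotated exon begins. All 6 genes are on the plus strand of GRCm38.p6. The Tef window lies before an annotated start inside the gene, which spans chr15:81802421-81826863, and not at its 5′ end.
Mmp3, chr9:7445572-7445821: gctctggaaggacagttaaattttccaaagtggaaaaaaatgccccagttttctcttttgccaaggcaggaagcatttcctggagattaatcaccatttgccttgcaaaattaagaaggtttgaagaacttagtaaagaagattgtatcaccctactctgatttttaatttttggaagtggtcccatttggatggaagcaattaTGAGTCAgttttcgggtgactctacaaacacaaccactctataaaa
Sprr2h, chr3:92385435-92385684: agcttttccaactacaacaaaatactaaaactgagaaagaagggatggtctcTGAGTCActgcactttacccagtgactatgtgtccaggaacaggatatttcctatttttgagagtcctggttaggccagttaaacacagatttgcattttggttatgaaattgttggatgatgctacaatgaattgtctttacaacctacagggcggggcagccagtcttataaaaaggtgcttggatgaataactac
Cxcl1, chr5:90890995-90891240: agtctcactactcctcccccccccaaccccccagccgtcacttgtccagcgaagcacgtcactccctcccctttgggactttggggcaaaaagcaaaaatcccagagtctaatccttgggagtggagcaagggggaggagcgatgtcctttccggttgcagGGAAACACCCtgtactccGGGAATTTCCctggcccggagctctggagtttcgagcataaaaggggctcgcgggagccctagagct
Il6, chr5:30012864-30013113: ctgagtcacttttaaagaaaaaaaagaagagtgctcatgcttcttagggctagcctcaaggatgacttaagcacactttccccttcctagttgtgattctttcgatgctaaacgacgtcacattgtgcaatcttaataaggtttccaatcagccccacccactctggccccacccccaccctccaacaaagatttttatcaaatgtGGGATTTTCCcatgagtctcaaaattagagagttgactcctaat
Creld2, chr15:88819396-88819645: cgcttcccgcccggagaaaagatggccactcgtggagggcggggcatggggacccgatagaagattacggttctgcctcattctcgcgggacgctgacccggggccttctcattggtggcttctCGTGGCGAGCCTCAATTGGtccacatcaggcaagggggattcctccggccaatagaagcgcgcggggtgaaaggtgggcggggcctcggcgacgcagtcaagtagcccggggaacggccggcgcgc
Tef, chr15:81811164-81811413: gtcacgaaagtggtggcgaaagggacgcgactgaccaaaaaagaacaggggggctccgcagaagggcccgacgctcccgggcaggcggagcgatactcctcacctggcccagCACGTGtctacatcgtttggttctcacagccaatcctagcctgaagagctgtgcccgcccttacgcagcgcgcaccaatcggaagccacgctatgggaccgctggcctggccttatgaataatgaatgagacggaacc
In the Mmp3 window, TGAGTCA spans the bases 46 to 40 before the start, and in the Il6 window GGGATTTTCC spans 44 to 35. Of these genes, Mmp3, the protease stromelysin, rose from 212 ± 40.001 to 737 ± 90.5 TPM, Sprr2h, an envelope precursor, from 18.1 ± 5.02 to 258 ± 92.6 TPM, and Creld2, a secreted chaperone of the endoplasmic reticulum, from 37.1 ± 2.17 to 62.0 ± 2.98 TPM. Tef, a clock output factor, fell from 148 ± 16.6 to 65.4 ± 4.58 TPM.

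Feedback genes of the MAP kinases rose. Of the 17 phosphatases, Sprouty and Spred genes that restrain the MAP kinases, 11 rose and 3 fell. Dusp6, the phosphatase specific for ERK, stood at 47.3, 42.0 and 45.1 TPM after vehicle and 256, 244, 254 and 241 TPM after croton oil (log2 difference 2.45 ± 0.055, adjusted p = 5.6e-08). The samples of each group lay close together and the groups far apart. Dusp2 (1.45 ± 0.12), Errfi1 (1.14 ± 0.10), an inhibitor of the EGF receptor, and Spry4 (0.91 ± 0.10) also rose, whereas Spred2 (-0.78 ± 0.075) and Dusp10 (-0.52 ± 0.10) fell. Of 12 genes for protein kinase C, protein kinase D and RasGRP, 2 rose and 5 fell, the falls near the share of all genes (3 without vehicle sample 2 or with quantile normalization). Prkca, the classical alpha isoform, rose from 9.57 ± 0.639 to 12.9 ± 1.49 TPM and Prkcd, the delta isoform, fell from 102 ± 2.96 to 79.7 ± 4.12 TPM.

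The AP-1 family shifted in composition. Among 13 subunits 9 rose and 2 fell. Junb was at 199, 188 and 205 TPM after vehicle and at 616, 451, 472 and 492 TPM after croton oil (log2 difference 1.35 ± 0.10, adjusted p = 1.2e-05), highest in croton oil sample 1. Fosl1 (1.48 ± 0.20), Fos (1.14 ± 0.13) and Fosl2 (0.58 ± 0.058) rose with it. The fallers were Jund, at 248, 251 and 284 TPM after vehicle and 153, 123, 128 and 135 TPM after croton oil (log2 difference -0.95 ± 0.083, adjusted p = 2.4e-05), and Fosb (-1.29 ± 0.26), whose vehicle samples were themselves uneven (42.1, 47.0 and 80.3 TPM). Of 23 immediate early genes, which answer a signal without new protein synthesis, 17 were still above vehicle at 6 h, with Ier3 (1.54 ± 0.074), Cyr61 (1.46 ± 0.19), Egr1 (1.45 ± 0.17) and Zfp36 (1.17 ± 0.057), which degrades cytokine messages, as examples. Both that fell were Klf4 (from 996 ± 66.4 to 559 ± 41.6 TPM), a factor of late epidermal differentiation, and the kinase Sik1 (-0.66 ± 0.11).

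Growth factors of the EGF family rose while their receptors did not. Of 12 ligands and receptors 6 rose, and all of these were ligands. Epgn (epigen) was at 8.48, 6.22 and 6.53 TPM after vehicle and 65.5, 90.4, 73.0 and 45.7 TPM after croton oil (log2 difference 3.08 ± 0.20, adjusted p = 7.2e-06), and Areg (amphiregulin) at 2.50, 3.04 and 2.19 TPM and 20.98, 36.3, 29.7 and 22.7 TPM (log2 difference 2.97 ± 0.18, adjusted p = 5.5e-06). For both, croton oil sample 2 was the highest and the groups lay far apart. Tgfa rose to 104 ± 13.6 from 21.1 ± 2.10 TPM, Hbegf to 147 ± 9.12 from 32.8 ± 7.63 TPM, and Ereg and Nrg1 by 0.86 ± 0.16 and 1.003 ± 0.16 on the log2 scale. Of the receptor genes, Erbb2 fell from 70.2 ± 5.72 to 56.9 ± 4.54 TPM (-0.30 ± 0.079).

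In the NF-kB group 12 of 18 genes rose, led by inhibitors and co-regulators more than by DNA-binding subunits. Bcl3, a nuclear cofactor of the p50 and p52 subunits, stood at 14.3, 13.8 and 15.1 TPM after vehicle and 92.6, 102, 138 and 104 TPM after croton oil (log2 difference 2.82 ± 0.12, adjusted p = 1.4e-06). Nfkbiz (1.28 ± 0.12), the RNase Zc3h12a (1.18 ± 0.15), the deubiquitinase Tnfaip3 (0.90 ± 0.075) and the inhibitor Nfkbia (0.68 ± 0.071) rose too, and of the subunits Nfkb1 (0.73 ± 0.056) and Nfkb2 (0.59 ± 0.078).

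Cytokine genes rose broadly, and several of their receptors moved the other way. The interleukin-1 and -36 family had 12 genes that rose and 2 that fell of 18. Il1b, made mainly by myeloid cells, was at 4.43, 3.79 and 3.57 TPM after vehicle and 49.8, 64.4, 79.6 and 54.6 TPM after croton oil (log2 difference 3.66 ± 0.15, adjusted p = 1.3e-06). Its keratinocyte relatives Il1a (1.77 ± 0.12), Il1f6 (1.49 ± 0.10) and Il1f9 (1.04 ± 0.059), the last 2 encoding interleukin-36 alpha and gamma, rose less. The fallers were the decoy receptor Il1r2, from 184, 189 and 192 TPM to 89.3, 102, 98.3 and 128 TPM (log2 difference -0.86 ± 0.11, adjusted p = 1.5e-04), and the interleukin-18 receptor chain Il18r1 (-0.61 ± 0.12). Il18r1 was under 1 TPM in every croton oil sample and entered the test through the vehicle group alone. Of the 16 genes that reached 1 TPM in some sample of each group, 11 rose and 1 fell.

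Among 12 genes of the interleukin-6 family, 8 rose and 3 fell. Il6 stood at 1.04, 0.724 and 1.20 TPM after vehicle and 23.8, 29.8, 30.3 and 38.1 TPM after croton oil (log2 difference 3.98 ± 0.15, adjusted p = 9.6e-07), and Osm (oncostatin M) at 1.09, 0.700 and 1.17 TPM and 10.7, 12.5, 11.1 and 11.7 TPM (log2 difference 2.66 ± 0.11, adjusted p = 1.2e-06). Both were near 1 TPM in all 3 vehicle samples and above 10 TPM in all 4 others. The receptor chains divided: Osmr rose (1.55 ± 0.11) and so did the shared gp130 chain Il6st (0.58 ± 0.11), while Lifr, at 19.4, 25.2 and 20.0 TPM after vehicle and 8.06, 8.48, 7.06 and 9.17 TPM after croton oil, fell (log2 difference -1.29 ± 0.11, adjusted p = 2.4e-05), as did Il11ra1 (-0.76 ± 0.062). Socs3, the feedback inhibitor that this family induces, rose from 33.1 ± 1.83 to 168 ± 22.9 TPM.

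A similar division of ligands and receptors was seen in the interleukin-20 group. The ligands Il19 (4.86 ± 0.31), Il24 (3.37 ± 0.43) and Il20 (1.497 ± 0.23) rose from low vehicle levels. Il24 was uneven after croton oil, at 11.7, 28.1, 8.52 and 5.07 TPM, with sample 2 the highest. Both chains of the receptor they share fell: Il20rb from 239, 271 and 216 TPM to 145, 113, 102 and 125 TPM (log2 difference -0.997 ± 0.12, adjusted p = 1.2e-04), and Il20ra from 37.3, 46.1 and 32.2 TPM to 15.1, 12.2, 17.0 and 20.0 TPM (log2 difference -1.22 ± 0.16, adjusted p = 2.4e-04). Il22ra1, which pairs with Il20rb in a second receptor, fell as well (-0.62 ± 0.11). Il10, an anti-inflammatory cytokine, rose from 0.505 ± 0.0211 to 6.16 ± 1.37 TPM. Of the 10 family genes tested, 3 (Il19, Il24 and Il10) were under 1 TPM in every vehicle sample and could enter the test through the croton oil group alone.

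In the TNF superfamily 13 of 21 genes rose, 10 of them among the 17 that reached 1 TPM in some sample of each group. Receptors led: Tnfrsf1a, the main TNF receptor, went from 253 ± 7.21 to 435 ± 20.97 TPM, Tnfrsf18 (GITR) from 23.5 ± 0.686 to 80.8 ± 12.3 TPM and Tnfrsf12a, the TWEAK receptor, from 197 ± 45.3 to 352 ± 18.4 TPM. Tnf itself stayed low, at 3.85 ± 0.229 TPM after vehicle and 7.21 ± 1.53 TPM after croton oil (log2 difference 0.74 ± 0.13, adjusted p = 0.0013). Edar, the receptor that patterns hair follicles, fell from 2.92 ± 0.0524 to 0.702 ± 0.0964 TPM, and entered the test through the vehicle group alone.

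Chemokines for neutrophils and monocytes were among the strongest gains. Of 8 neutrophil chemokine and growth factor genes tested 6 rose and 1 fell, a fall lost with median ratio scaling. Of the 5 that reached 1 TPM in some sample of each group 3 rose. Cxcl1 was at 17.1, 15.2 and 20.5 TPM after vehicle and 215, 281, 311 and 296 TPM after croton oil (log2 difference 3.89 ± 0.13, adjusted p = 8.0e-07), and Cxcl5 at 0.262, 0.230 and 0.133 TPM and 8.14, 23.0, 11.8 and 13.9 TPM (log2 difference 3.57 ± 0.27, adjusted p = 1.2e-05). No vehicle sample came near the lowest croton oil sample for either, but Cxcl5 was under 1 TPM in every vehicle sample and entered the test through the croton oil group alone. Of 11 inflammatory CC chemokines 9 rose and none fell. The monocyte attractants Ccl7, at 53.6, 36.2 and 51.9 TPM and then 492, 694, 662 and 647 TPM (log2 difference 3.70 ± 0.15, adjusted p = 1.4e-06), Ccl2, from 57.4 ± 10.5 to 468 ± 48.5 TPM, and Ccl12, from 9.07 ± 1.76 to 153 ± 33.8 TPM, reached the highest levels. The eosinophil attractants Ccl11 (1.82 ± 0.22) and Ccl24 (1.88 ± 0.33) rose by less. Ccl20, an attractant of lymphocytes and dendritic cells, went from 18.1 ± 7.26 to 509 ± 80.5 TPM. Of 12 lymphocyte and constitutive chemokines 3 rose and 3 fell: Ccl27a (-0.77 ± 0.12), the keratinocyte chemokine for skin-homing T cells, Ccl22 (-0.57 ± 0.12) and Cx3cl1 (-0.73 ± 0.11) fell, and Ccl20, Cxcl14 (1.05 ± 0.11) and Cxcl16 (0.75 ± 0.11) rose.

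Of the type 2 genes, the interleukin-4 receptor chain Il4ra rose from 23.9, 21.4 and 23.4 TPM to 77.0, 108, 117 and 91.9 TPM (log2 difference 2.04 ± 0.13, adjusted p = 5.9e-06) and Il13ra1 by 1.11 ± 0.069, and the interleukin-25 receptor Il17rb fell from 7.12, 6.63 and 7.36 TPM to 2.22, 2.04, 1.83 and 2.32 TPM (log2 difference -1.38 ± 0.088, adjusted p = 6.5e-06). Of 22 eicosanoid genes 8 rose and 3 fell. Ptges, the inducible prostaglandin E synthase, rose from 68.0, 65.9 and 55.2 TPM to 204, 259, 313 and 279 TPM (log2 difference 2.04 ± 0.14, adjusted p = 7.8e-06). Ptgs2 (cyclooxygenase-2) was at 16.03, 9.56 and 22.1 TPM after vehicle and 20.2, 21.1, 19.3 and 23.7 TPM after croton oil, with overlapping groups (log2 difference 0.45 ± 0.22, adjusted p = 0.099; without vehicle sample 3, adjusted p = 0.0095), whereas Ptgs1 rose (0.50 ± 0.11). Alox8, the lipoxygenase known for its induction by phorbol ester in mouse skin, rose from 0.803 ± 0.218 to 4.51 ± 2.59 TPM, and the leukotriene C4 synthase gene Ltc4s fell (-0.75 ± 0.13).

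**Figure D3:**
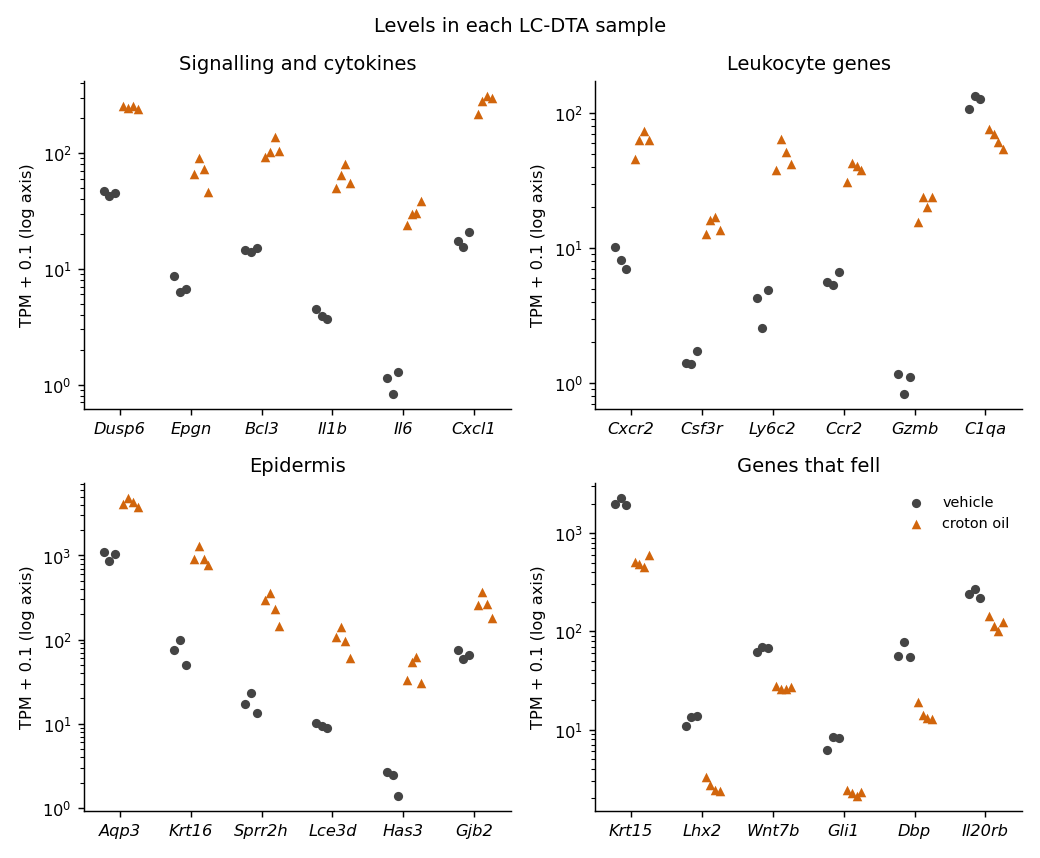
TPM of 24 genes in each of the 7 samples (log axis, 0.1 added), in 4 panels for signalling and cytokines, leukocyte genes, epidermis, and genes that fell; circles are the 3 vehicle samples and triangles the 4 croton oil samples. The 24 genes were chosen so that triangles and circles do not overlap. Over all 14432 genes tested, the croton oil samples lay wholly above vehicle in 3807 and wholly below it in 5353.

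Genes of neutrophils and monocytes rose in the ear, while those of resident macrophages mostly fell. Of 22 neutrophil genes tested 20 rose; 7 of them were under 1 TPM in every vehicle sample, and of the 15 detected in both groups 13 rose. Cxcr2, the receptor for Cxcl1, was at 10.1, 8.08 and 6.87 TPM after vehicle and 45.7, 63.2, 73.4 and 62.6 TPM after croton oil (log2 difference 2.73 ± 0.16, adjusted p = 5.3e-06), and Csf3r, the G-CSF receptor, at 1.30, 1.28 and 1.63 TPM and 12.6, 15.9, 16.9 and 13.4 TPM (log2 difference 2.70 ± 0.11, adjusted p = 1.4e-06). S100a8 and S100a9, the calprotectin subunits, which stressed keratinocytes also make, reached 177 ± 53.9 and 245 ± 41.3 TPM. The 27 listed neutrophil genes summed to 472 to 487 TPM after vehicle and 964 to 1254 TPM after croton oil. A large part of the vehicle sum is the decoy receptor Il1r2, the 1 tested gene of the list that fell. After croton oil a large part of the sum is S100a8 and S100a9. Granule genes that neutrophils transcribe as precursors in bone marrow were low in both groups: Ltf (lactoferrin) at 0.412 ± 0.220 and 0.300 ± 0.0826 TPM and Ngp at 0.05001 ± 0.0570 and 0.0839 ± 0.0705 TPM. The stefin A genes, inhibitors of cathepsins that lie in a cluster of near-identical copies, held the largest folds of all, with BC100530 from 3.97 ± 2.95 to 211 ± 50.7 TPM and Stfa1 from 1.39 ± 0.213 to 68.8 ± 15.3 TPM. How reads shared by such copies were assigned is not given in the sources used here, so the split between copies is uncertain.

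Of 18 monocyte genes 15 rose, 13 of them among the 16 detected in both groups. Ly6c2, which marks classical blood monocytes, stood at 4.17, 2.44 and 4.81 TPM after vehicle and 37.7, 63.9, 51.2 and 42.1 TPM after croton oil (log2 difference 3.38 ± 0.21, adjusted p = 5.8e-06). Ccr2, the receptor for Ccl2, went from 5.47, 5.24 and 6.51 TPM to 30.5, 42.9, 40.1 and 38.04 TPM (log2 difference 2.52 ± 0.12, adjusted p = 2.2e-06) and Plac8 from 10.3 ± 4.38 to 118 ± 23.4 TPM. For each of the 3 the lowest croton oil sample lay more than 4-fold above the highest vehicle sample. Their list summed to 685 to 851 TPM after vehicle and 1229 to 1425 TPM after croton oil, although most of that sum is Thbs1 and Fn1, which skin cells also make. By contrast 13 of 18 resident macrophage genes fell. Gas6, a bridge between dying cells and their receptors that fibroblasts and vessel cells also make, fell from 477, 577 and 506 TPM to 274, 205, 199 and 211 TPM (log2 difference -1.23 ± 0.11, adjusted p = 3.4e-05), C1qa, a complement subunit, from 108, 134 and 128 TPM to 76.3, 70.3, 61.0 and 54.5 TPM (log2 difference -0.91 ± 0.12, adjusted p = 2.0e-04), and Csf1r, the receptor for macrophage growth factor, from 78.4 ± 11.4 to 52.9 ± 5.68 TPM. The exceptions were the mannose receptor Mrc1, which rose from 44.98 ± 7.30 to 91.2 ± 16.5 TPM, and Timd4, from 1.85 ± 0.0276 to 7.08 ± 2.57 TPM.

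Genes of the class II molecule fell, while the wider dendritic cell list went both ways. All of H2-Aa (-0.82 ± 0.21), H2-Ab1 (-0.82 ± 0.24), H2-Eb1 (-0.87 ± 0.24) and Cd74 (-0.81 ± 0.22), which make up the class II molecule and its chaperone, fell, and the summed level of the 20 listed dendritic cell and class II genes went from a range of 1062 to 1886 TPM to one of 644 to 1023 TPM. Of 17 tested 8 fell and 5 rose; without vehicle sample 2, whose H2-Aa level was the highest (299, 521 and 389 TPM in vehicle samples 1 to 3), 5 fell, a smaller share than that of all genes, and H2-Ab1 was among the calls lost (adjusted p = 0.059). Flt3, a receptor of conventional dendritic cells, fell too (-0.86 ± 0.13), while Cd209a, found on monocyte-derived dendritic cells, rose from 6.10, 10.5 and 7.76 TPM to 15.4, 36.3, 32.0 and 26.6 TPM (log2 difference 1.61 ± 0.27, adjusted p = 8.1e-04) and Cd80 by 1.16 ± 0.13. Of 6 Langerhans cell genes tested 2 rose and 3 fell, with a median log2 difference of -0.25. The riser Epcam, which Langerhans cells and follicle cells share, went from 214 ± 14.3 to 474 ± 28.5 TPM although Cd207 stayed under 1 TPM.

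Of 19 T cell genes 7 fell and 2 rose, a share of falls near that of all genes. Cd4 (-1.08 ± 0.15), Cd3e (-0.54 ± 0.11) and Itgae (-0.71 ± 0.10), the integrin of T cells lodged in the epidermis, fell. Gzmb (granzyme B), also made by other activated cells, rose from 1.06, 0.724 and 1.01 TPM to 15.4, 23.9, 20.1 and 23.7 TPM (log2 difference 3.48 ± 0.15, adjusted p = 1.5e-06), near 1 TPM in all vehicle samples and above 15 TPM in all others. Of 10 B and NK cell genes 2 reached the level for testing.

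Mast cells are named in the series' title. Of 21 mast cell genes 8 fell and 5 rose, both near the shares of all genes, and neither is read as a result about the group. Kit, the stem cell factor receptor, went from 9.71, 12.8 and 12.2 TPM to 5.98, 7.49, 5.99 and 6.80 TPM (log2 difference -0.73 ± 0.11, adjusted p = 5.2e-04), and Mrgprb2, the mast cell receptor for basic secretagogues, from 5.83, 7.08 and 5.78 TPM to 1.86, 3.02, 2.98 and 3.71 TPM (log2 difference -0.91 ± 0.16, adjusted p = 0.0011). The granule protease Tpsb2 fell (log2 difference -0.69 ± 0.15, adjusted p = 0.0039), whereas the chymases Cma1, at 148 ± 31.7 and 123 ± 8.69 TPM (log2 difference -0.24 ± 0.13, adjusted p = 0.12), and Mcpt4, at 186 ± 43.2 and 159 ± 22.3 TPM (log2 difference -0.21 ± 0.16, adjusted p = 0.29), did not pass the test. Without vehicle sample 1 both fell (adjusted p = 0.017 and 0.019). Without vehicle sample 2 the number of mast cell genes that fell was 5 instead of 8. The risers included Hdc, the histamine-making enzyme, from 17.7, 17.5 and 24.2 TPM to 34.0, 42.9, 46.3 and 46.2 TPM (log2 difference 1.07 ± 0.14, adjusted p = 2.0e-04), Hpgds (1.03 ± 0.14), Il1rl1 (1.40 ± 0.19) and Fcer1a (1.08 ± 0.29). Basophils share these genes, and the basophil genes Mcpt8, from 0.0526 ± 0.0910 to 1.32 ± 0.375 TPM, and Cd200r3, from 1.05 ± 0.301 to 2.47 ± 0.282 TPM, rose as well, although Mcpt8, under 1 TPM in every vehicle sample, entered the test through the croton oil group alone; whether the risers stem from mast cells was not tested. Mrgprd, the receptor of the sensory neurons named in the title, was at 0.0479 ± 0.0198 and 0.0254 ± 0.0141 TPM, far below the level for testing; the cell bodies of these neurons lie in ganglia outside the ear.

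In the epidermis, envelope precursors and stress keratins of the wound state rose and the abundant products of normal cornification changed little or fell. Of 33 suprabasal and envelope genes 18 rose and 1 fell. Sprr2h was at 17.3, 23.4 and 13.5 TPM after vehicle and 294, 362, 233 and 144 TPM after croton oil (log2 difference 3.72 ± 0.29, adjusted p = 1.5e-05), and Lce3d, of the late envelope genes induced by barrier injury, at 10.1, 9.36 and 8.89 TPM and 109, 139.8, 95.8 and 60.6 TPM (log2 difference 3.23 ± 0.23, adjusted p = 9.8e-06). Croton oil sample 4 was the lowest of its group for both, and still above all vehicle samples. Sprr2 and Lce3 genes are clustered copies, so their single values share the uncertainty named for the stefins. Ivl (involucrin) rose from 106 ± 7.24 to 255 ± 63.5 TPM and Tgm1, the transglutaminase that cross-links these proteins, from 130.2 ± 7.54 to 217 ± 16.6 TPM. The member that fell was Lor (loricrin), the main envelope protein, from 3628, 3666 and 3479 TPM to 3013, 2439.9, 2673 and 2781 TPM (log2 difference -0.40 ± 0.084, adjusted p = 0.0028).

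Stress keratins rose with them. Krt6b stood at 5.19, 7.36 and 4.86 TPM after vehicle and 91.9, 148, 113 and 51.7 TPM after croton oil (log2 difference 3.83 ± 0.30, adjusted p = 1.6e-05), and Krt6a (2.30 ± 0.10), Krt16 (3.72 ± 0.23) and Krt17 (1.17 ± 0.11) rose too. Krt18, a keratin of simple epithelia, rose from 0.877 ± 0.279 to 6.19 ± 1.34 TPM. The basal keratin pair divided: Krt14 rose from 5095 ± 359 to 6289 ± 497 TPM (log2 difference 0.30 ± 0.094, adjusted p = 0.02), a call that was lost without vehicle sample 2 (adjusted p = 0.076), while its partner Krt5 fell from 5456 ± 26.7 to 3855 ± 403 TPM (log2 difference -0.51 ± 0.093, adjusted p = 0.0014). Genes for adhesion to the basement membrane moved both ways: the integrins Itga6 (0.77 ± 0.071) and Itgb1 (0.51 ± 0.056) rose, and Dst (dystonin), which ties keratin to the hemidesmosome, fell from 68.1, 89.3 and 68.6 TPM to 25.7, 20.4, 18.97 and 21.8 TPM (log2 difference -1.75 ± 0.12, adjusted p = 9.3e-06). Its 3 vehicle samples lay well above the 4 others. The basal cadherins Dsg3, from 81.3 ± 6.80 to 255 ± 31.2 TPM, and Cdh3, from 28.2 ± 1.23 to 91.6 ± 14.7 TPM, rose.

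Junction genes split evenly, 12 higher and 12 lower of 27. The connexin genes Gjb2 (1.97 ± 0.20), Gjb6 (1.74 ± 0.21) and Gja1 (1.56 ± 0.088), which open gap junctions in wounded epidermis, rose, with Gjb2 at 75.5, 59.1 and 65.2 TPM after vehicle and 259, 373, 266 and 182 TPM after croton oil. Claudins of tight junctions fell, including Cldn23 from 53.6, 51.6 and 54.2 TPM to 25.01, 20.9, 22.01 and 25.9 TPM (log2 difference -1.15 ± 0.08, adjusted p = 9.0e-06), Cldn8 (-1.06 ± 0.12) and Cldn3 (-0.92 ± 0.11), although Cldn4 rose (0.47 ± 0.08). Secreted defences rose: of 19 antimicrobial genes 14 rose, 11 of them among the 16 detected in both groups. Defb14, the mouse counterpart of human beta-defensin-3, stood at 16.2, 16.4 and 11.1 TPM and then 64.9, 105, 88.5 and 89.6 TPM (log2 difference 2.49 ± 0.17, adjusted p = 8.9e-06), and Slpi, an inhibitor of neutrophil elastase, at 19.3 ± 5.26 and then 321 ± 78.3 TPM. Ang (-0.97 ± 0.09) and Rnase4 (-0.70 ± 0.094), ribonucleases made from 1 shared locus, fell. Of 25 epidermal proteases and inhibitors 20 rose and none fell, among them Prss22 (2.87 ± 0.12), Klk6 (1.49 ± 0.13) and Klk10 (1.28 ± 0.12), kallikreins of shedding skin, and Serpinb2, from 611 ± 46.9 to 1232 ± 119.6 TPM.

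Genes of the hair follicle and of the pathways that pattern it fell together. Of 18 follicle genes 14 fell and 1 rose. Lhx2, a stem cell factor of the follicle, was at 10.8, 13.3 and 13.6 TPM after vehicle and 3.17, 2.64, 2.35 and 2.29 TPM after croton oil (log2 difference -1.91 ± 0.11, adjusted p = 5.5e-06). Msx2 (-1.47 ± 0.10), Lgr6 (-0.76 ± 0.10) and Cd34 (-0.81 ± 0.12), also an endothelial and fibroblast gene, fell too, and Ovol1 rose (0.58 ± 0.11). Hair shaft keratins were mostly under the level for testing.

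Most genes of the Wnt pathway fell, with 26 of 35 genes lower, 2 higher and a median log2 difference of -0.55 beside -0.089 for all genes. Both ligands and inhibitors took part. Wnt7b, an epidermal ligand, fell from 62.2, 68.5 and 67.3 TPM to 27.9, 25.7, 25.96 and 27.3 TPM (log2 difference -1.27 ± 0.059, adjusted p = 2.0e-06), the receptor Fzd2 by -1.25 ± 0.13, and the secreted inhibitors Sostdc1 (-2.75 ± 0.17), Wif1 (-0.92 ± 0.20) and Frzb (-0.73 ± 0.12) fell as well. Axin2, the usual target by which Wnt activity is read, went from 28.3, 36.7 and 29.8 TPM to 14.2, 12.5, 14.4 and 11.1 TPM (log2 difference -1.21 ± 0.11, adjusted p = 3.4e-05). The highest croton oil sample lay well under the lowest vehicle sample. Against the rest, the inhibitor Sfrp1 rose from 26.5 ± 3.53 to 56.7 ± 3.16 TPM.

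Hedgehog and Notch genes also fell more often than they rose. Of 8 Hedgehog genes 6 fell and none rose: the target and effector Gli1 from 6.05, 8.23 and 8.09 TPM to 2.34, 2.18, 2.01 and 2.22 TPM (log2 difference -1.40 ± 0.11, adjusted p = 1.5e-05), Gli2 by -1.27 ± 0.10, and the receptor Ptch1, itself a target, by -1.03 ± 0.11. Of 15 Notch genes 8 fell and 2 rose. Notch1, which drives keratinocytes into differentiation, went from 49.3, 52.9 and 48.6 TPM to 31.3, 24.4, 19.3 and 18.8 TPM (log2 difference -1.10 ± 0.15, adjusted p = 3.1e-04), with sample 1 the highest after croton oil, and the modifier Lfng (-1.17 ± 0.07), the ligand Jag2 (-0.84 ± 0.094) and the targets Hey1 (-1.06 ± 0.18) and Heyl (-1.05 ± 0.10) fell.

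In the BMP and TGF-beta group 16 genes fell and 9 rose of 29. The activin system stood out from the rest by its gain: Inhba, the activin A subunit, went from 0.752, 1.11 and 1.28 TPM to 4.34, 6.37, 7.52 and 4.76 TPM (log2 difference 1.70 ± 0.17, adjusted p = 5.0e-05) and its binding inhibitor Fst (follistatin) from 37.1, 38.9 and 38.04 TPM to 134, 167, 196 and 179 TPM (log2 difference 2.11 ± 0.11, adjusted p = 3.6e-06). Tgfb3 fell from 32.4, 39.1 and 34.1 TPM to 13.1, 11.7, 10.7 and 10.3 TPM (log2 difference -1.54 ± 0.10, adjusted p = 5.8e-06), Tgfb2 fell (-0.78 ± 0.093) and Tgfb1 rose (0.68 ± 0.10), so the 3 ligands did not move alike. Of 20 retinoid genes 6 rose and 10 fell. The retinaldehyde dehydrogenase genes Aldh1a3 and Aldh1a1 went opposite ways: Aldh1a3 rose from 3.04 ± 0.274 to 19.2 ± 3.12 TPM and Aldh1a1 fell from 43.3 ± 2.14 to 16.6 ± 1.72 TPM. Dhrs9 rose by 1.68 ± 0.20, and the receptors Rarg (-0.78 ± 0.10) and Rxra (-0.72 ± 0.066) fell.

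**Figure D4:**
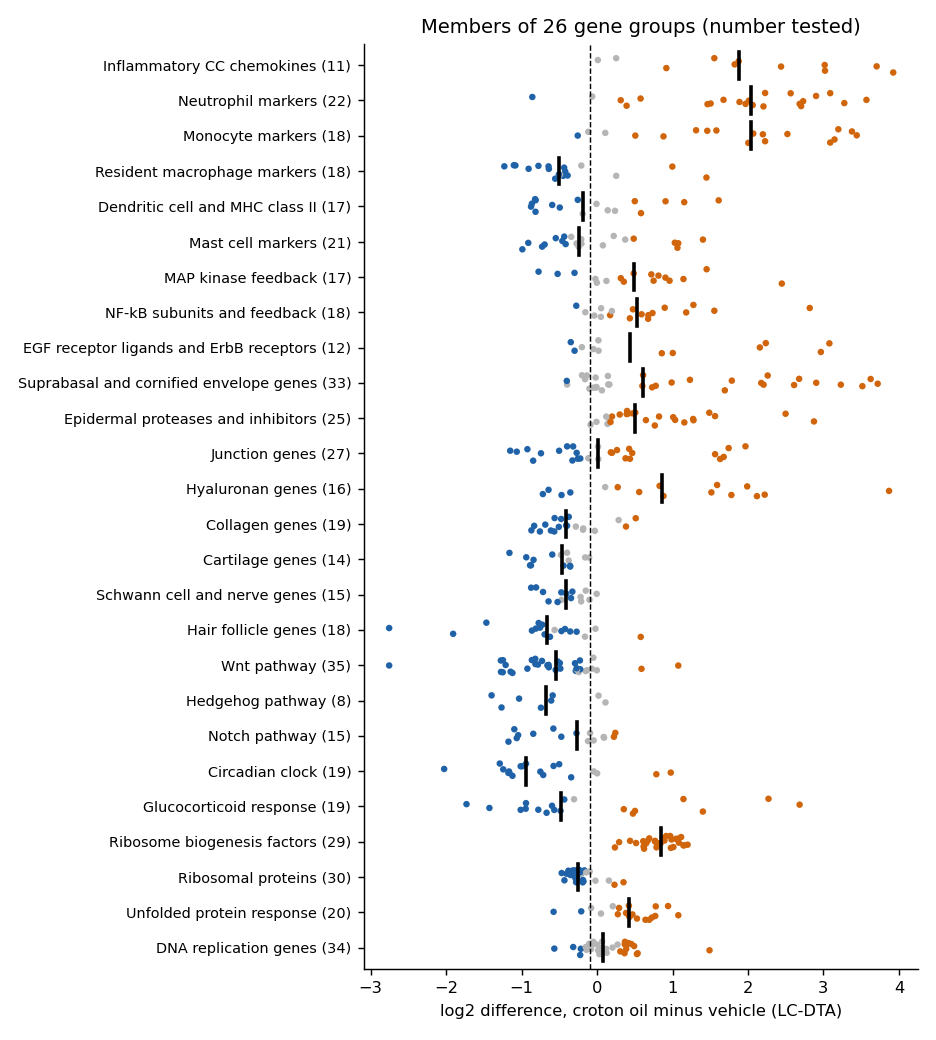
Log2 difference (x axis, croton oil minus vehicle) of each tested member of 26 gene groups (rows), with a black bar at the group's median; orange and blue points rose and fell in the test and grey points did not pass it. The dashed line marks the median of all genes tested, -0.089; ribosome biogenesis lies wholly to its right, and most Wnt, clock and Hedgehog genes to its left.

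Dermal matrix genes fell, and matrix proteases and their inhibitors moved both ways. Of 19 collagen genes 12 fell and 2 rose, with Col1a1 at 1051, 1023 and 1585 TPM after vehicle and 705, 895, 574 and 557 TPM after croton oil (log2 difference -0.83 ± 0.20, adjusted p = 0.0051). The range within each group was wide, and vehicle sample 3 was the highest. Col7a1, the anchoring fibril collagen, fell from 49.7 ± 5.09 to 26.8 ± 3.27 TPM, and the fibroblast genes Clec3b (-1.08 ± 0.064), Ogn (-1.18 ± 0.11) and Mfap4 (-0.97 ± 0.14) fell as well. Of 26 protease and inhibitor genes 13 rose and 9 fell. Mmp1b, a matrix metalloproteinase gene, rose from 1.03, 0.943 and 1.08 TPM to 11.2, 19.2, 20.4 and 20.7 TPM (log2 difference 3.19 ± 0.19, adjusted p = 5.5e-06), Adamts4 from 1.504 ± 0.348 to 19.1 ± 3.40 TPM and the inhibitor Timp1 from 21.1, 16.7 and 18.7 TPM to 118, 209, 185 and 148 TPM (log2 difference 3.04 ± 0.18, adjusted p = 5.1e-06). Mmp2 (-0.74 ± 0.077), Mmp14 (-0.48 ± 0.078), Timp2 (-0.69 ± 0.083) and Timp4 (-1.06 ± 0.067), which resting fibroblasts make, fell.

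Genes for hyaluronan, the water-binding polymer of swollen tissue, rose at several steps. All 3 synthase genes rose: Has3, of the epidermis, from 2.54, 2.38 and 1.28 TPM to 33.1, 54.1, 62.5 and 30.5 TPM (log2 difference 3.87 ± 0.26, adjusted p = 8.4e-06), Has2 from 4.28, 3.64 and 4.21 TPM to 17.1, 26.8, 28.5 and 19.4 TPM (log2 difference 2.22 ± 0.17, adjusted p = 1.2e-05) and Has1 by 2.12 ± 0.19. Samples 2 and 3 were the highest after croton oil for Has2 and Has3. The precursor enzyme Ugdh (0.83 ± 0.14), the receptor Cd44 (from 98.0 ± 13.8 to 338 ± 37.0 TPM), the cross-linkers Tnfaip6 (1.59 ± 0.18) and Ptx3 (1.99 ± 0.20) and the depolymerase Cemip (1.51 ± 0.12) rose, while Hyal1 (-0.47 ± 0.11) and the lymphatic receptor Lyve1 (-0.64 ± 0.16) fell. Cemip was under 1 TPM in every vehicle sample and entered the test through the croton oil group alone.

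Of 25 endothelial genes 10 rose and 8 fell. Icam1, which arrests leukocytes, rose from 35.0, 38.8 and 43.4 TPM to 84.5, 94.2, 114 and 108 TPM (log2 difference 1.33 ± 0.11, adjusted p = 1.8e-05), Sele (E-selectin) from 3.48, 2.80 and 3.77 TPM to 5.43, 11.4, 10.5 and 9.36 TPM (log2 difference 1.19 ± 0.21, adjusted p = 0.0011) and Selp by 1.06 ± 0.19. Pecam1 (-0.39 ± 0.067), Tie1 (-0.52 ± 0.091), Tek (-0.71 ± 0.08) and Vwf (-0.83 ± 0.15) fell. Of 6 lymphatic genes 5 fell, Flt4 (-0.82 ± 0.16) and Mmrn1 (-0.59 ± 0.11) among them, and Pdpn, which keratinocytes and fibroblasts also make, rose (0.69 ± 0.11). Smooth muscle and pericyte genes fell in 7 of 10, for example Pdgfrb (-0.85 ± 0.10) and Rgs5 (-0.87 ± 0.18). Cartilage genes fell in 9 of 14, for example Chad, from 159 ± 31.9 to 71.3 ± 17.2 TPM, and Schwann cell genes in 9 of 15. No gene of these 3 groups rose. The sensory growth factor Artn (artemin), from 0.336 ± 0.224 to 4.31 ± 0.610 TPM, rose, whereas Ntf3 fell (-1.08 ± 0.17). Artn was under 1 TPM in every vehicle sample and entered the test through the croton oil group alone.

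Ribosome building rose throughout its list as ribosomal protein messages fell. All 29 of 29 ribosome biogenesis factors rose, with a median log2 difference of 0.84. Nop2, a ribosomal RNA methyltransferase, was at 46.3, 38.8 and 43.6 TPM after vehicle and 89.5, 106, 107 and 96.2 TPM after croton oil (log2 difference 1.20 ± 0.083, adjusted p = 9.0e-06), and the nucleolar chaperone Npm1 went from 458 ± 22.6 to 866 ± 59.0 TPM. Of 30 ribosomal protein genes 23 fell and 2 rose, with a median of -0.25. This second count changed with the scaling: with TPM rescaled by median ratios 10 fell, with quantile normalization 14, and without croton oil samples 3 and 4 the number was 8. Myc rose from 99.8 ± 6.82 to 197 ± 15.1 TPM, while the antagonists Mxd4, from 99.7, 109 and 105 TPM to 54.8, 36.4, 41.0 and 49.3 TPM (log2 difference -1.20 ± 0.12, adjusted p = 5.8e-05), and Mnt (-0.78 ± 0.079) fell, as did Mycl (-2.53 ± 0.15).

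Of 10 arginine and polyamine genes 6 rose and 4 fell (4 became 2 with median ratio scaling or without vehicle sample 2). Smox (spermine oxidase), which breaks spermine down, rose from 27.6, 26.4 and 29.3 TPM to 139.6, 171, 182 and 135 TPM (log2 difference 2.45 ± 0.11, adjusted p = 1.5e-06), Odc1, the first enzyme of polyamine synthesis and a classical phorbol ester response gene, from 441, 314 and 415 TPM to 681, 889.8, 758 and 709 TPM (log2 difference 0.97 ± 0.13, adjusted p = 2.2e-04), and Srm, of the same synthesis, by 1.03 ± 0.079, while the arginase Arg2 (-0.69 ± 0.11) and the antizyme Oaz2 (-0.56 ± 0.072) fell. Of 20 genes of the unfolded protein response 15 rose and 2 fell; the chaperone Hspa5 (BiP) went from 322, 274 and 323 TPM to 538, 579, 638 and 599 TPM (log2 difference 0.94 ± 0.08, adjusted p = 2.1e-05), with no overlap. Of 20 heat shock genes 12 rose and 5 fell: Hspd1 (0.89 ± 0.071), Hsph1 (0.99 ± 0.071) and Hspa8 (0.76 ± 0.078) rose, and Hspa1a, from 61.5, 55.8 and 59.6 TPM to 38.4, 35.7, 36.0 and 42.1 TPM (log2 difference -0.62 ± 0.071, adjusted p = 9.5e-05), and Hspa1b (-0.56 ± 0.078) fell. Of 26 glycolysis and hypoxia genes 15 rose and 5 fell; Hif1a (1.14 ± 0.13), Hk2 (1.16 ± 0.11) and Vegfa (1.11 ± 0.10) rose and Bnip3 fell (-0.85 ± 0.11). Of 24 genes for glutathione and redox balance 11 rose and 6 fell. Nfe2l2, encoding Nrf2, rose (1.06 ± 0.071) with Gsta4, from 21.6, 19.8 and 19.1 TPM to 170.1, 184, 176 and 135 TPM (log2 difference 2.98 ± 0.10, adjusted p = 8.0e-07), and Slc7a11 (1.93 ± 0.24), the cystine importer, while Gstm1 fell from 184 ± 9.84 to 99.3 ± 3.70 TPM.

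Proliferation genes moved little at 6 h. Of 34 DNA replication genes 12 rose and 4 fell, with a median log2 difference of 0.077, and of 25 mitosis genes 3 rose and 3 fell. The nucleotide enzyme Rrm2 rose most (1.49 ± 0.073). Of 24 p53 target genes 11 rose and 7 fell, with a median log2 difference of 0.075. Among genes tied to p53 and arrest, Trp73 fell from 10.8, 8.65 and 8.32 TPM to 4.05, 1.53, 0.976 and 1.05 TPM (log2 difference -1.93 ± 0.29, adjusted p = 4.9e-04), with croton oil sample 1 the highest of its group. Trp53inp1 fell from 31.1, 42.8 and 33.9 TPM to 11.6, 9.62, 8.38 and 13.1 TPM (log2 difference -1.66 ± 0.15, adjusted p = 3.2e-05) and Cdkn1b by -1.10 ± 0.081, whereas Cdkn1a (p21) rose (0.54 ± 0.07).

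Circadian clock genes fell together. Of 19 clock genes 15 fell and 2 rose, with a median log2 difference of -0.94. The outputs Dbp, from 56.0, 77.6 and 55.1 TPM to 19.1, 13.996, 12.99 and 12.7 TPM (log2 difference -2.03 ± 0.16, adjusted p = 1.5e-05), Hlf (-1.29 ± 0.13) and Tef (-1.16 ± 0.084), the repressors Per1 (-1.01 ± 0.16), Per2 (-0.94 ± 0.20), Per3 (-1.12 ± 0.084) and Cry2 (-1.18 ± 0.11), and Nr1d1 (-1.24 ± 0.084) all fell, and so did their activator Arntl (-0.58 ± 0.095). Nfil3, the factor that competes with Dbp, Hlf and Tef for their sites, rose from 18.1, 18.7 and 25.1 TPM to 35.0, 38.4, 41.6 and 51.2 TPM (log2 difference 0.98 ± 0.14, adjusted p = 3.8e-04), and Bhlhe40 rose (0.79 ± 0.074). The hour of collection is not in the labels, and whether it differed between groups was not tested. Genes induced by glucocorticoids went both ways: Tsc22d3 (GILZ) fell from 109.6, 206 and 128 TPM to 41.2, 37.2, 39.6 and 52.6 TPM (log2 difference -1.73 ± 0.20, adjusted p = 1.0e-04), highest in vehicle sample 2, and Klf15 (-1.43 ± 0.19) and the receptor Nr3c1 (-0.57 ± 0.075) fell, while Angptl4 (2.27 ± 0.12) rose.

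The LC-DTR ears, which had lost the same cells only shortly before, show where this response differed. The difference of responses, LC-DTA minus LC-DTR on the log2 scale, was tested as an interaction in all 14 samples. Of 14693 genes it was higher in 1541 (10.5%) and lower in 1848 (12.6%). Without LC-DTA vehicle sample 2 it was lower in 1157. The 2 kinds of mice differ in mouse line, in the time since the cells were lost and in the toxin injection, and their label numbers do not overlap, so these cannot be told apart as sources of any difference. A difference can also come from the vehicle level. Vehicle levels of both kinds of ears are given below for Ccr2, Ly6c2, Mcm2 and Klf15 only.

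Monocyte genes gained more in LC-DTA ears: the difference was higher in 11 and lower in 0 of 18. Ccr2 stood at 6.44 ± 1.72 TPM after croton oil in LC-DTR ears, and the responses of 2.52 in LC-DTA and -0.16 in LC-DTR differed by 2.68 ± 0.25 (adjusted p = 8.2e-05). Ly6c2 (2.58 ± 0.49) and Ifitm6 (1.78 ± 0.31) differed the same way, as did the basophil gene Mcpt8 (0.88 ± 0.22). The LC-DTR vehicle samples already held 2.58 ± 2.24 TPM of Ly6c2 and 7.25 ± 1.65 TPM of Ccr2, beside 3.81 ± 1.23 and 5.74 ± 0.677 TPM in LC-DTA vehicle samples. Epidermal and tissue genes with a larger response in LC-DTA ears included Has3 (2.36 ± 0.48, adjusted p = 0.0045), Cxcl5 (2.33 ± 0.34), Ch25h, the enzyme of 25-hydroxycholesterol (1.59 ± 0.33), Timp1 (1.47 ± 0.40) and Gsta4 (2.08 ± 0.36).

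Cell cycle genes differed in 1 direction. It was higher in 31 and lower in 0 of 34 replication genes, and higher in 17 of 25 mitosis genes. In LC-DTR ears 31 replication genes fell after croton oil, with a median log2 difference of -0.93, against 0.077 in LC-DTA ears. Mcm2, a subunit of the replicative helicase, stood at 19.1 ± 2.64 and 4.60 ± 0.639 TPM in LC-DTR ears and at 13.7 ± 1.09 and 17.9 ± 1.57 TPM in LC-DTA ears, a difference of 2.22 ± 0.15 (adjusted p = 8.3e-06). For genes of the unfolded protein response the difference was higher in 13 and lower in 1 of 20, with Creld2 (0.86 ± 0.092) and Hspa5 (0.69 ± 0.12) as examples. In LC-DTR ears 4 genes of this group rose and 8 fell. Their median log2 difference was -0.10 there, against 0.43 in LC-DTA ears.

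Clock and glucocorticoid genes had lower differences. The difference was lower in 10 of 19 clock genes and in 12 of 19 glucocorticoid genes, and higher in none of either. The median log2 difference of the clock genes was -0.054 in LC-DTR ears and -0.94 in LC-DTA ears. In LC-DTR ears 13 glucocorticoid genes rose and 2 fell, against 7 and 11 of 19 in LC-DTA ears. Klf15 was at 13.3 ± 3.96 and 26.2 ± 2.48 TPM in LC-DTR ears, where croton oil raised it, and at 12.3 ± 3.35 and 3.92 ± 1.06 TPM in LC-DTA ears, a difference of -2.39 ± 0.29 (adjusted p = 2.6e-04). Tsc22d3 (-1.75 ± 0.42), Cry2 (-1.25 ± 0.15) and Trp53inp1 (-2.19 ± 0.28) had lower differences too. Hdc gained in both kinds of ears and less in LC-DTA ears (-1.20 ± 0.29), and Edn2 (endothelin-2), which fell here, had a lower value too (-1.49 ± 0.21).

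**Figure D5:**
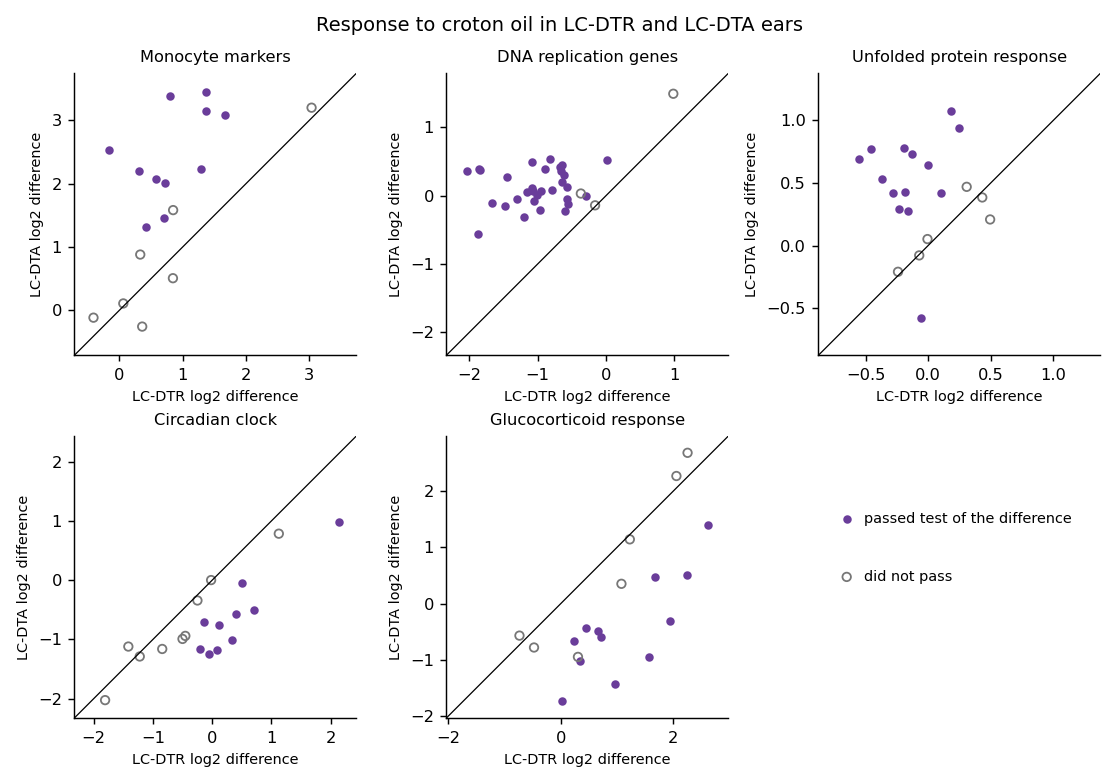
Log2 difference, croton oil minus vehicle, in LC-DTR ears (x axis) and LC-DTA ears (y axis) for the tested members of 5 gene groups, 1 panel each; the diagonal marks equal responses, and filled points passed the test of the difference. Most monocyte, DNA replication and unfolded protein response genes lie above the diagonal, and most clock and glucocorticoid genes below it.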

How the data were processed

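The values are TPM per gene in 1 deposited table with 14 sample columns, made by the authors and named as TPM in the file header. Per the submitters' processing notes, reads were handled with cutadapt, HISAT2 and featureCounts of Subread on mm10; their order, versions and settings, such as strand and multimapped reads, are unknown from the sources used here, so values of near-identical gene copies (stefins, Sprr2 and Lce genes) are uncertain. RNA was extracted with a column kit and libraries were stranded poly(A) libraries, per the labels' protocols. Of 24062 rows, 27 that carry a date in place of a gene name were left out (0.124% to 0.145% of TPM per sample), and no sample column was without a label.

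Genes with at least 1 TPM in at least 3 of the 7 samples were fitted as log2(TPM + 1) in limma 3.58.1 (R 4.3.3) with a mean-variance trend, and Benjamini-Hochberg adjustment ran over all genes tested; both signs of change were tested, and a gene passed at an adjusted p under 0.05. The difference of responses was an interaction contrast over all 14 samples. Since TPM sum to the same total in every sample, a large gain in some genes lowers the others. A mean-variance fit on log values was used because TPM are not counts and keep no depth, and no counting interval is given. Among named genes, Artn, Cemip, Cxcl5, Il10, Il19, Il24 and Mcpt8 were under 1 TPM in every vehicle sample and Edar and Il18r1 in every croton oil sample, so they entered the test through the other group. Gene coordinates come from the GENCODE annotation of GRCm38, and promoter windows from RefSeq. Other sequences were looked at before those shown were chosen, so the shares describe and test nothing.

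The members and gene lists were chosen with earlier results of these data known. Named genes were the 15 largest log2 changes and the 15 largest TPM changes in each direction, up to 8 list members with the lowest p, members called against the direction of most, members of lists of 20 or fewer, and the 8 smallest p of the difference in each direction. Cldn4, Cyr61, Egr1, Frzb, Fzd2, Ivl, Ltf, Ngp, Ptgs1, Ptgs2, Sele, Selp, Tgfb2 and Wif1 fall outside that rule and were chosen after their values were seen. Alternatives changed the pseudocount (0.1 and 5), the filter (none and 5 TPM), the scaling, the limma settings, the replicate block and the samples left out.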

Additional observations from a re-analysis of the deposited data

Results flagged for a closer look

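For 15 of the 293 genes named with a value in LC-DTA ears (5.12%), 1 of the 4 croton oil samples lay far from the other 3 by Dixon's test at the 95% level, a share that chance alone gives in about 1 in 20. Sample 1 was the distant one for 9 genes, sample 4 for 4, sample 3 for 2 and sample 2 for none. Sample 1 was the lowest for the AP-1 subunit Fosl2 (104 TPM), the cytokine and receptor genes Il1f9 (139 TPM), Il6st (129.6 TPM) and Osmr (64.1 TPM), the metalloproteinase Mmp1b (11.2 TPM), the inhibitor Timp4 (9.81 TPM) and the serpin Serpinb2 (1054 TPM), and the highest for Gas6 (274 TPM) and the retinoic acid receptor Rarg (119 TPM), whose vehicle level was 168 ± 2.62 TPM. Sample 4 was the lowest for BC100530 (136 TPM), Mmp14 (109.8 TPM) and Prss22 (118 TPM) and the highest for Cry2 (37.1 TPM). Sample 3 was the highest for Creld2 (66.4 TPM) and Urah (1468 TPM).

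The croton oil response of 18 named genes differed between LC-DTA and LC-DTR ears in the interaction test. The LC-DTA response exceeded the other on the log2 scale for the monocyte genes Ccr2 (2.68), Ly6c2 (2.58) and Ifitm6 (1.78), for Has3 (2.36), Cxcl5 (2.33), Mcm2 (2.22), Gsta4 (2.08), Ch25h (1.59) and Timp1 (1.47), for Mcpt8 (0.88), and for the chaperone genes Creld2 (0.86) and Hspa5 (0.69). It was below the other for Klf15 (-2.39), Trp53inp1 (-2.19), Tsc22d3 (-1.75), Edn2 (-1.49), Cry2 (-1.25) and Hdc (-1.20).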

How the results depend on the processing

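In LC-DTA ears the counts of genes that rose and fell stayed within 1.5 times of 3714 and 5293 under each alternative run. Median ratio scaling gave 4534 higher and 4383 lower (50.8% of calls higher, against 41.2% of calls as deposited), and quantile normalization 4134 and 4753. The counts at 2-fold or more depended on the pseudocount: 684 genes rose and 793 fell that far with 0.1, and 306 rose and 150 fell with 5. For the difference of responses, the lower count ran from 1157 (without LC-DTA vehicle sample 2) to 2168 (without LC-DTR vehicle sample 1) when single samples were left out, and was 1201 without LC-DTA croton oil samples 1 and 2.

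The labels number the samples within groups, and same-numbered vehicle and croton oil samples did not deviate together (correlations 0.13, -0.091 and -0.13), so the numbers were not taken to pair the samples. With the number as a replicate block, 3304 genes rose and 5010 fell, and the difference was higher in 1221 and lower in 1439; Erbb2 then had an adjusted p of 0.051 in limma.

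Genes whose call depended on 1 sample were mostly left out of the text, a choice made after seeing these values. Of those kept, Krt14 had a limma adjusted p of 0.061 without croton oil samples 3 and 4 and 0.090 with no filter, Fcer1a had 0.060 without croton oil samples 1 and 2, and the differences of Mcpt8 and Timp1 had 0.0502 and 0.0556 without croton oil samples 3 and 4. TPM give no depth, so counting error in low genes is not known.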

Other observations

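Most genes of the pattern recognition list rose in LC-DTA ears, and complement genes mostly fell. Of 27 genes of this list tested 18 rose and 4 fell, and of the 24 that reached 1 TPM in some sample of each group 15 rose. The risers include genes that are not sensors of microbes, such as the adaptor Myd88 and the antibody receptor genes Fcgr2b, Fcgr3 and Fcgr4. Clec7a (Dectin-1), the receptor for fungal glucan, stood at 2.79, 3.13 and 3.97 TPM after vehicle and 28.5, 39.9, 36.4 and 38.4 TPM after croton oil (log2 difference 3.10 ± 0.13, adjusted p = 1.4e-06), with the groups far apart. Nod2, a sensor of bacterial cell wall fragments, rose from 2.51 ± 0.197 to 17.2 ± 3.23 TPM and the adaptor Myd88 from 65.8 ± 0.804 to 149 ± 17.7 TPM, while the flagellin receptor Tlr5 fell (-0.92 ± 0.12). Of 18 complement genes 3 rose and 11 fell. The regulators Cd59a (-0.82 ± 0.091) and Cd55 (-0.78 ± 0.12) and the C1 inhibitor Serping1, from 250.2 ± 12.4 to 157 ± 21.7 TPM, fell, and the receptors C3ar1 (0.73 ± 0.12) and C5ar1 (0.73 ± 0.13), which myeloid cells carry, rose. Of 33 interferon-stimulated genes 11 rose, 3 fell (Ifit3, Ddx58 and Gbp3) and 19 did not pass. The share that rose was not far above the 25.7% of all genes, and it is not read as a result about the group. Among the risers was Ifitm3, from 353, 408 and 399.6 to 843, 814, 863 and 682 TPM (log2 difference 1.04 ± 0.091, adjusted p = 2.5e-05). Ifitm3 alone made up most of the summed level of this list in both groups. All 4 croton oil samples lay above the 3 vehicle samples for Ifitm3.

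Sterol genes moved both ways. Of 31 tested 11 rose and 5 fell. The synthesis enzyme genes Idi1, from 62.9, 41.4 and 60.0 to 88.2, 109.9, 96.0 and 106 TPM (log2 difference 0.88 ± 0.14, adjusted p = 6.2e-04), and Hsd17b7 (0.64 ± 0.12) rose. Abca1, the cholesterol exporter, fell from 33.0, 43.5 and 34.6 to 15.9, 18.9, 14.7 and 18.6 TPM (log2 difference -1.08 ± 0.12, adjusted p = 7.5e-05), as did the ubiquitin ligase gene Mylip (-1.02 ± 0.084). Of 24 proteasome subunit genes 9 rose and none fell, by small amounts, for example Psmd14 (0.44 ± 0.069) and Psma5 (0.34 ± 0.063).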
